A study of Mus musculus with 8 samples.

Results

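The antioxidant and glutathione enzymes are the proteins that remove superoxide, peroxides and reactive electrophiles. They were chosen by symbol, as the protein-coding genes named as superoxide dismutases (Sod), catalase (Cat), peroxiredoxins (Prdx), glutathione peroxidases (Gpx), glutathione S-transferases (GST, with the classes Gsta, Gstk, Gstm, Gsto, Gstp, Gstt and Gstz) or microsomal GSTs (Mgst). This rule gave 43 of the 54532 genes in the deposited table. The rule itself used no measured value, but the group was chosen with earlier results of these data known. RNA was taken from lung endothelial cells (ECs) of wild-type C57BL/6J mouse pups at postnatal day 14. From postnatal day 0 on, the pups breathed room air with 21% O2 (normoxia) or air enriched to 80% O2 (hyperoxia), with 4 libraries in each group, and in the study's protocol nursing dams were exchanged between both conditions every day. The cells were selected with CD31-coated beads after CD45-positive leukocytes had been removed. The study uses prolonged hyperoxia after birth to model, in mice, bronchopulmonary dysplasia, the lung disease that follows oxygen treatment of infants born too early. The labels do not say whether a library held the cells of 1 pup or of several, so the p-values measure the spread between these libraries, which may in part be technical.

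Superoxide dismutases convert superoxide into hydrogen peroxide. Catalase breaks hydrogen peroxide down directly, whereas peroxiredoxins and glutathione peroxidases reduce it with electrons that come from thioredoxin or from glutathione, and both of these are recharged with NADPH. GSTs join glutathione to electrophiles such as the aldehydes left by oxidized lipids, and several microsomal GSTs also reduce lipid peroxides. Many of these genes are known targets of the transcription factor NRF2, which binds the antioxidant response element, a short DNA motif. Capillary ECs and the epithelium of the alveoli are separated only by a thin wall, so both are exposed to inhaled oxygen.

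In hyperoxia the pattern was one of selected enzymes and not of the whole set. Of the 43 genes, 33 had enough counts to be tested. Among these 33 genes, 13 (39.4%) were higher in hyperoxia at an adjusted p under 0.05 in edgeR's quasi-likelihood test, against 18.5% of all 15564 genes tested. Only 3 (9.09%), Mgst2, Gstk1 and Gstt2, were lower, against 17.1% of all genes tested. With a log2 fold change of at least 1 as well, 6 enzymes were higher (Gpx3, Gsta4, Mgst1, Gstt1, Gsto1 and Gstt3), which is 18.2% of those tested against 5.62% of all genes, and 0 were lower, against 1.36%. Gsta4, counted in both the 13 and the 6, had enough counts to be tested only through its hyperoxic libraries. The median log2 fold change of the tested enzymes was 0.24, and that of all genes tested was -0.0040. All hyperoxic libraries were above all normoxic ones for 13 of the 33 tested enzymes and below them for 3. Groups were separate in this way, in either direction, for 5513 of all 15564 genes tested. The summed level of all 43 genes made up between 0.121% and 0.144% of the counts of the normoxic libraries and between 0.138% and 0.156% of those of the hyperoxic libraries. These ranges overlapped.

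**Figure D1:**
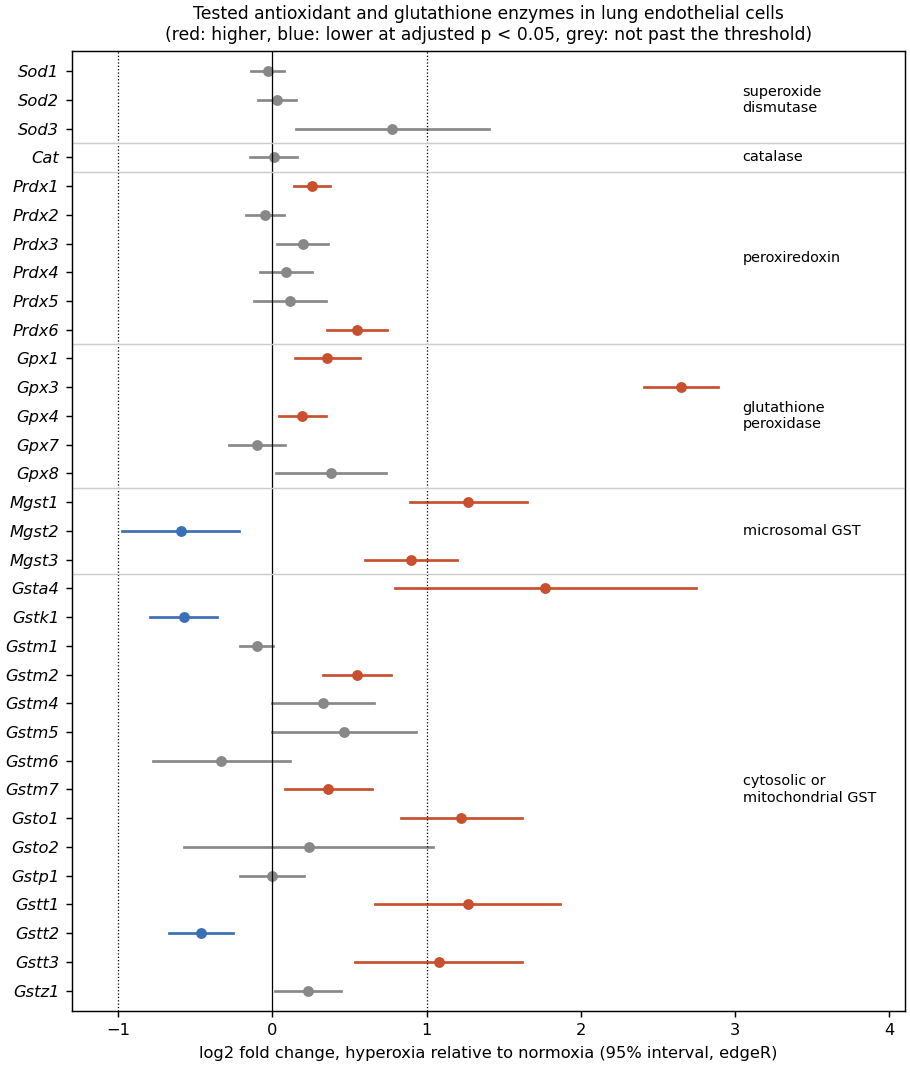
Log2 fold change (x axis, hyperoxia relative to normoxia, with 95% intervals from edgeR) of the 33 tested enzymes, grouped by family on the y axis, where red marks higher, blue lower and grey genes that did not pass the test. Gpx3 stands apart at 2.65, while Sod1, Sod2 and Cat sit near 0.

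Markers of ECs were abundant in every library, and RNA of markers of other cells was present beside them. The summed level of 10 endothelial markers, led by the junction protein Cdh5, was 16870 to 17810 CPM (counts scaled to a common normalized library size) in normoxia and 16970 to 17860 CPM in hyperoxia (exact two-sided permutation p = 0.4). Markers of alveolar type 2 cells, led by the surfactant gene Sftpc, summed to 245 to 353 CPM in normoxia and 808 to 2440 CPM in hyperoxia, and 10 of 10 were higher. For alveolar type 1 cells, led by Ager, the sums were 85.5 to 108 CPM and 188 to 526 CPM, and 8 of 8 were higher. Both sums, and that of the mesothelial markers, differed at the smallest p that 4 libraries against 4 allow (exact permutation p = 0.0286, adjusted p = 0.0734 over 9 marker lists). The exact permutation p was 0.0571 for the airway, fibroblast, mural and erythroid sums and 0.114 for the leukocyte sum. Fibroblast markers, led by Col3a1, reached 116 to 223 CPM in normoxia and 173 to 409 CPM in hyperoxia (4 of 7 tested were higher). Mural cell markers, led by Pdgfrb, ran from 23.5 to 47.9 CPM and from 45.5 to 107 CPM (6 of 7 higher). Leukocyte markers, led by Lyz2, ran from 188 to 399 CPM and from 252 to 595 CPM, with 2 of 11 higher and 1 lower. Lyz2, 1 of the 2 higher, had means of 77.3 and 225 CPM, while Ptprc was level (38.4 and 38.3 CPM). Whether all Lyz2 RNA came from leukocytes was not tested. Airway markers, led by Tppp3, ran from 60.5 to 82.0 CPM and from 80.6 to 111 CPM, with 1 of the 4 tested higher, 1 lower and 1 of 7 without a count. Tppp3 made up most of this sum (means of 65.6 and 92.7 CPM), and no other airway marker had a group mean above 1.93 CPM. Mesothelial markers, led by Msln, stayed at or under 2.0 CPM. Erythroid markers, led by Hbb-bs, ran from 117 to 214 CPM in normoxia and from 88.6 to 125 CPM in hyperoxia, and 5 of the 6 tested were lower. Hyperoxia 3 stood apart, with 808 CPM of alveolar type 2 markers against 2148 to 2440 CPM in the other hyperoxic libraries. In bulk RNA, a change in the number of cells of a type and a change in RNA per cell cannot be told apart.

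Several enzymes carry a copy of the antioxidant response element core, TGACNNNGC, close to their start site. Their sites are shown because the motif is the sequence through which NRF2 is known to act on this group of genes. It was searched on both strands of the 250 bases before the start sites that RefSeq gives for build GRCm38.p6, without checking for other motifs that share its letters. Of the 39 enzymes in the promoter table (Gsta4, Gstt2, Prdx6 and Sod3 were not in it), 6 had a match (15.4%), against 3112 of 27025 genes (11.5%). The matches fell in 3 of the 11 enzymes with a promoter that rose (Mgst1, Prdx1 and Gstm7), in 0 of the 2 that fell, in 2 of the 16 tested enzymes that did not pass (Sod1 and Gstm5) and in Gsta3, which was not tested. A match is a description of the letters and not evidence of binding. The motif is in capitals, each line reads 5′ to 3′ on the strand that holds it, and the sites of Mgst1, Prdx1 and Sod1 are on the strand opposite to the gene.
Mgst1: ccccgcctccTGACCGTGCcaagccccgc
Prdx1: ctacgggggaTGACTCAGCgctttccctg
Gstm7: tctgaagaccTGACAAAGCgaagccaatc
Sod1: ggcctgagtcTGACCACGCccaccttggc
Gstm5: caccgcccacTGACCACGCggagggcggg
Gsta3: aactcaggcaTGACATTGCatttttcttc

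In GRCm38.p6 these stretches lie at chr6:138140461-138140489 (- strand) for Mgst1, chr4:116685456-116685484 (- strand) for Prdx1 and chr3:107931725-107931753 (- strand) for Gstm7. That of Sod1 is at chr16:90220696-90220724 (- strand), that of Gstm5 at chr3:107895802-107895830 (+ strand) and that of Gsta3 at chr1:21240454-21240482 (+ strand). The stretches of Mgst1 and Gstm7 lie within exons annotated by GENCODE, 10 bases of that of Gstm5 do so, and the others are outside annotated exons. Another window of Gstm7, directly before its annotated gene limits, had no match, and neither had another window of Mgst1. Counted from its base farthest from the RefSeq start site, the motif lay 56 bases before that site in Mgst1 and Sod1 and 133 bases before it in Prdx1. Gpx3, the enzyme that rose most, had no match in its window, but that window begins inside the gene limits given by the files, 82 of its bases lie in GENCODE exons, and the region before the annotated gene start was not searched.

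Superoxide dismutases and catalase, which act first on superoxide and on hydrogen peroxide, did not pass edgeR's test, although Sod3 passed with other processing. Sod1, the cytosolic copper-zinc enzyme, stood at 180, 166, 185 and 168 CPM in normoxia 1 to 4 and at 171, 176, 166 and 172 CPM in hyperoxia 1 to 4 (log2 fold change -0.03 ± 0.05 SE, 95% interval -0.14 to 0.08). Cat, the peroxisomal enzyme, stood at 88.4, 80.7, 94.4 and 84.2 CPM and at 93.4, 91.4, 77.3 and 88.1 CPM (0.01 ± 0.07 SE, interval -0.14 to 0.16). For both genes the groups lay on top of each other, and the intervals leave room for changes of no more than about 0.16 on the log2 scale. Sod2, the manganese enzyme of mitochondria, had 43.6 ± 1.89 CPM and 44.6 ± 2.26 CPM in the respective groups (SD, n = 4 each, log2 fold change 0.03, interval -0.09 to 0.15).

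Sod3, the secreted enzyme that binds to the extracellular matrix, was uneven. It had 7.35, 4.27, 6.55 and 4.42 CPM in normoxia and 10.7, 11.7, 4.69 and 11.7 CPM in hyperoxia (log2 fold change 0.78 ± 0.28 SE, edgeR adjusted p = 0.0529). Hyperoxia 1, 2 and 4 were above every normoxic library, while hyperoxia 3 was within the normoxic range. DESeq2, the tool of the study, called it higher (0.78, adjusted p = 0.0194), as did edgeR without the filter on low counts (0.79, adjusted p = 0.0155), and it passed in 4 of 21 alternatives. Without hyperoxia 3 the log2 fold change was 1.01 with an adjusted p of 0.00255. Hyperoxia 3 also had the lowest level of epithelial, fibroblast and mural markers in its group, and their part in the Sod3 values was not tested.

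Glutathione peroxidases gave the largest change of all 33 tested enzymes. Gpx3, the secreted selenoenzyme known from plasma (chromosome 11, 54902453 to 54910377, + strand, in GRCm38), had 11.1, 8.31, 9.62 and 9.17 CPM in normoxia. In hyperoxia it had 63.8, 64.0, 49.5 and 62.6 CPM, so that every hyperoxic library was far above every normoxic one. It rose 6.28-fold (log2 fold change 2.65 ± 0.11 SE, edgeR adjusted p = 8.44e-08). Gpx3 was the only one of the called enzymes that kept its call under all 21 alternative ways of processing, with log2 fold changes from 2.59 to 2.73 when single libraries were left out.

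Gpx1, the main peroxidase of the cytosol, had 89.5, 68.9, 90.2 and 67.9 CPM in normoxia and 102, 102, 95.1 and 106 CPM in hyperoxia. It rose by 0.36 ± 0.10 SE on the log2 scale (adjusted p = 0.0143), and the groups did not overlap. Gpx4, which reduces lipid peroxides inside membranes, had 84.9, 78.6, 87.8 and 75.1 CPM and then 103, 94.0, 85.6 and 90.5 CPM. Here the groups overlapped and the rise was at the edge of the threshold (0.19 ± 0.07 SE, adjusted p = 0.0486). It was lost in 14 of 21 alternatives, and 25.2% of the 100-base windows of Gpx4 transcripts also occur in other genes, mainly in the pseudogene Gpx4-ps2. Gpx7 and Gpx8, peroxidases of the endoplasmic reticulum, did not pass. Gpx7 had 20.3 ± 1.52 and 18.9 ± 1.26 CPM (log2 fold change -0.10, adjusted p = 0.370) and Gpx8 6.14 ± 1.06 and 8.0 ± 1.32 CPM (0.38, adjusted p = 0.0914, and 0.49 with adjusted p = 0.0308 without hyperoxia 3).

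Scaled for gene length, this changed the make-up of the family. The summed FPKM (fragments divided by gene length and by library depth) of the glutathione peroxidases was 128 ± 14.2 in the normoxic and 179 ± 10.3 in the hyperoxic libraries (SD, n = 4 each). Gpx1 had the highest level in both groups (54.5 ± 8.66 and 69.9 ± 3.07 FPKM), followed by Gpx4 (47.0 ± 3.43 and 53.8 ± 4.18 FPKM), and in normoxia the ranges of these neighbours overlap within their SDs. Gpx3 moved from the lowest of the 5 tested members (5.23 ± 0.668 FPKM, within 1 SD of Gpx8 at 5.82 ± 1.02 FPKM) to the third place (32.9 ± 3.80 FPKM). Its share of the family was 3.72% to 4.41% in the normoxic libraries and 16.6% to 19.4% in the hyperoxic ones. Gpx2, Gpx5 and Gpx6 were not tested. Gpx5 and Gpx6 had no count in any library, and Gpx2, known from epithelia of the gut, had 0 counts in normoxia and 6, 1, 0 and 2 counts in hyperoxia, too few for a fold.

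**Figure D2:**
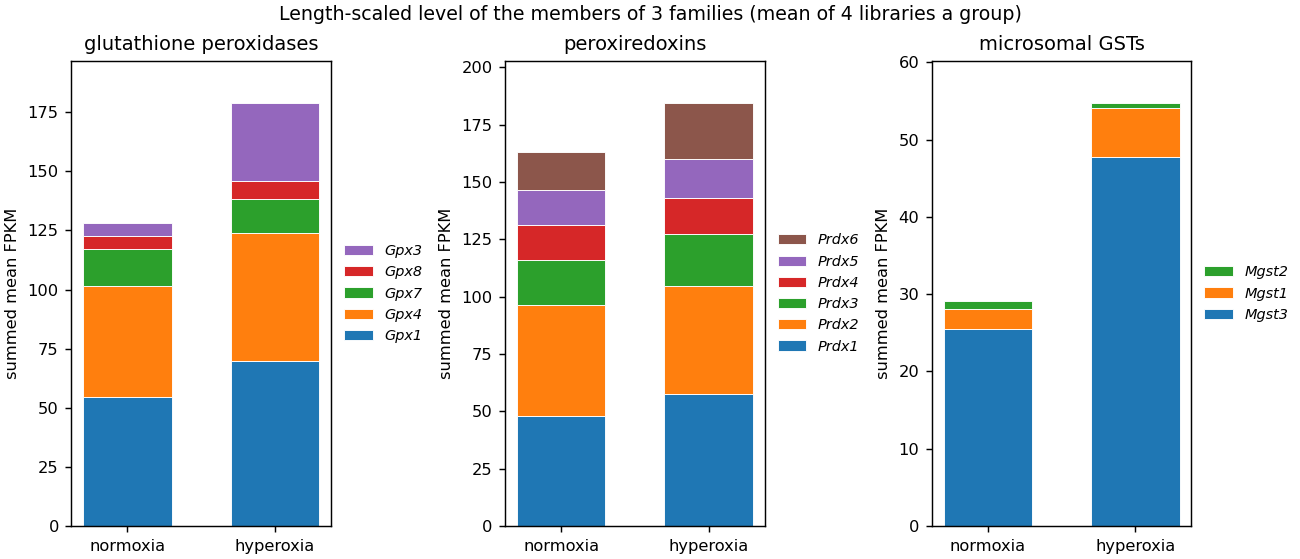
Summed mean FPKM (y axis, mean of 4 libraries) in normoxia and hyperoxia for the glutathione peroxidases, peroxiredoxins and microsomal GSTs, with each colour 1 gene. The Gpx3 segment grows from 5.23 to 32.9 FPKM, while the order of the larger segments of Gpx1 and Gpx4 stays the same.

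Among the 6 peroxiredoxins, 2 rose and 4 did not pass. Prdx6, which reduces phospholipid peroxides with glutathione and is also a phospholipase, had 86.0, 71.6, 82.5 and 81.1 CPM in normoxia and 129, 124, 97.4 and 121 CPM in hyperoxia. The groups were separate (log2 fold change 0.55 ± 0.09 SE, adjusted p = 0.000670), with hyperoxia 3 nearest to normoxia. Prdx1, a cytosolic enzyme that takes its electrons from thioredoxin and whose promoter site is printed above, had 146, 135, 157 and 151 CPM and 177, 173, 172 and 182 CPM. Its rise was small but separate between the groups (0.26 ± 0.05 SE, adjusted p = 0.00319).

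Prdx2, abundant in red blood cells as well as in other cells, was nearly level. It had 150, 136, 164 and 148 CPM in normoxia and 145, 148, 139 and 145 CPM in hyperoxia (log2 fold change -0.05 ± 0.06 SE, interval -0.17 to 0.08). Prdx3, the mitochondrial enzyme, had 29.3 ± 3.09 and 33.5 ± 0.528 CPM (0.20, adjusted p = 0.0626), and every hyperoxic library was above every normoxic one although the test was not passed. Prdx4, of the endoplasmic reticulum, had 31.8 ± 3.35 and 33.9 ± 1.06 CPM (0.09, adjusted p = 0.391). Prdx5, found in mitochondria and peroxisomes, had 33.4 ± 2.08 and 36.2 ± 5.77 CPM (0.11, adjusted p = 0.433), and 19.1% of its exon bases overlap Trmt112 on the other strand. Per gene length, Prdx1 (48.0 ± 3.26 FPKM) and Prdx2 (48.5 ± 3.86 FPKM) were level in normoxia, whereas in hyperoxia Prdx1 (57.6 ± 1.43 FPKM) was above Prdx2 (47.0 ± 1.31 FPKM) by more than their SDs.

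The microsomal GSTs, membrane enzymes with activity on lipid peroxides or leukotrienes, moved in both directions. Mgst1, of the endoplasmic reticulum and mitochondria, had 4.72, 3.93, 7.05 and 5.52 CPM in normoxia and 14.3, 13.4, 10.8 and 12.9 CPM in hyperoxia. Its rise of 1.27 ± 0.17 SE on the log2 scale was 2.41-fold (adjusted p = 0.000236). Mgst3, the most abundant member, had 30.5, 21.0, 34.5 and 26.8 CPM and 52.8, 51.3, 46.0 and 60.5 CPM. It rose by 0.90 ± 0.14 SE (adjusted p = 0.000481), also without overlap. Mgst2, which can make leukotriene C4, had 3.37, 3.64, 4.03 and 3.26 CPM and 2.91, 2.10, 2.29 and 2.16 CPM. It fell (log2 fold change -0.59 ± 0.17 SE, adjusted p = 0.0195), with all hyperoxic libraries below all normoxic ones, and 7 of 21 alternatives lost that call. Per gene length Mgst3 held 87.7 ± 1.28% of the summed FPKM of these genes in normoxia and 87.2 ± 1.24% in hyperoxia, and the sum itself was 29.1 ± 5.88 and 54.7 ± 5.74 FPKM.

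Of the 22 other GSTs, which lie in the cytosol or, for Gstk1, in mitochondria and peroxisomes, 15 were tested, of which 6 rose and 2 fell. Gstm1, a mu class enzyme and the gene with the highest length-scaled level of all 43 (108 ± 6.80 FPKM in normoxia, 101 ± 1.67 FPKM in hyperoxia), had 158, 150, 173 and 158 CPM in normoxia and 146, 151, 148 and 151 CPM in hyperoxia. It did not pass (log2 fold change -0.10 ± 0.05 SE, adjusted p = 0.135). Gstp1, the pi class enzyme, had 30.2 ± 2.75 and 30.1 ± 3.48 CPM (log2 fold change -0.0041, interval -0.21 to 0.20), and 25.1% of its 100-base windows are shared with Gstp2.

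The mu class genes lie side by side on chromosome 3. Gstm2 had 42.3, 35.5, 49.8 and 40.3 CPM in normoxia and 66.5, 66.2, 55.5 and 58.0 CPM in hyperoxia. It rose by 0.55 ± 0.10 SE (adjusted p = 0.00155). Gstm7, whose motif match within an annotated exon is printed above, had 3.80, 3.98, 3.75 and 4.25 CPM and 4.74, 5.49, 4.81 and 5.27 CPM. Its rise of 0.36 ± 0.13 SE was near the threshold (adjusted p = 0.0460) and was lost in 14 of 20 alternatives. Gstm4 (3.30 ± 0.364 and 4.14 ± 0.394 CPM, adjusted p = 0.113), Gstm5 (3.19 ± 0.877 and 4.40 ± 0.661 CPM, adjusted p = 0.111) and Gstm6 (1.87 ± 0.209 and 1.49 ± 0.192 CPM, adjusted p = 0.231) did not pass. When the counts of the 7 mu class genes were summed as 1 feature, to be independent of how reads were split between near copies, the log2 fold change was 0.08 (adjusted p = 0.324). The share of Gstm1 in the summed FPKM of the 22 genes was 51.6% to 54.3% in normoxia and 46.0% to 51.0% in hyperoxia, and that of Gstm2 was 11.1% to 13.7% and 16.2% to 18.4%.

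The theta class, on chromosome 10, was split. Gstt1 had 1.65, 2.11, 1.29 and 1.27 CPM in normoxia and 4.51, 4.76, 2.23 and 3.72 CPM in hyperoxia. It rose by 1.27 ± 0.27 SE (adjusted p = 0.00416), and hyperoxia 3 was just above the highest normoxic library. Gstt3 had 0.919, 1.08, 1.29 and 1.22 CPM and 2.51, 3.12, 1.66 and 2.27 CPM. It rose by 1.08 ± 0.24 SE (adjusted p = 0.00574), and 13.6% of its exon bases overlap Gm20441 on the same strand. Gstt2, which has the highest count of the class, had 13.0, 11.8, 14.3 and 12.1 CPM and 9.31, 9.68, 9.04 and 9.21 CPM. It fell (log2 fold change -0.46 ± 0.09 SE, adjusted p = 0.00304), and the hyperoxic libraries lay close together below all normoxic ones. In counts, of which Gstt2 holds most, the sum of the class had a log2 fold change of -0.01 (adjusted p = 0.952). Scaled for gene length, the sum was 4.48 ± 0.196 FPKM in the normoxic and 5.34 ± 0.954 FPKM in the hyperoxic libraries (SD, n = 4 each), a difference smaller than the SD of the latter.

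Outside these classes, 2 GSTs rose and 1 fell. Gsto1, the omega class enzyme that also reduces dehydroascorbate, had 4.23, 3.41, 4.64 and 2.82 CPM in normoxia and 8.74, 9.12, 7.10 and 10.4 CPM in hyperoxia. It rose by 1.23 ± 0.18 SE (2.34-fold, adjusted p = 0.000389). Gsta4, the alpha class enzyme known for its action on 4-hydroxynonenal, an aldehyde from oxidized lipids, had 0.674, 0.569, 0.168 and 0.166 CPM and 1.37, 1.87, 0.916 and 1.22 CPM. The groups were separate, with a wide error at this low level (1.77 ± 0.44 SE, adjusted p = 0.00977). With 11, 10, 3 and 3 counts in normoxia, Gsta4 passed the filter on low counts only through its hyperoxic libraries. Gstk1, the kappa class enzyme, had 17.3, 18.6, 20.4 and 17.3 CPM and 12.9, 13.9, 11.1 and 11.5 CPM. It fell by 0.57 on the log2 scale (SE 0.10, adjusted p = 0.00107), and no hyperoxic library reached the lowest normoxic one. Gstz1, an enzyme of tyrosine breakdown (11.6 ± 0.954 and 13.6 ± 1.08 CPM, adjusted p = 0.0833), and Gsto2 (0.587 ± 0.169 and 0.691 ± 0.261 CPM, adjusted p = 0.655) did not pass.

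**Figure D3:**
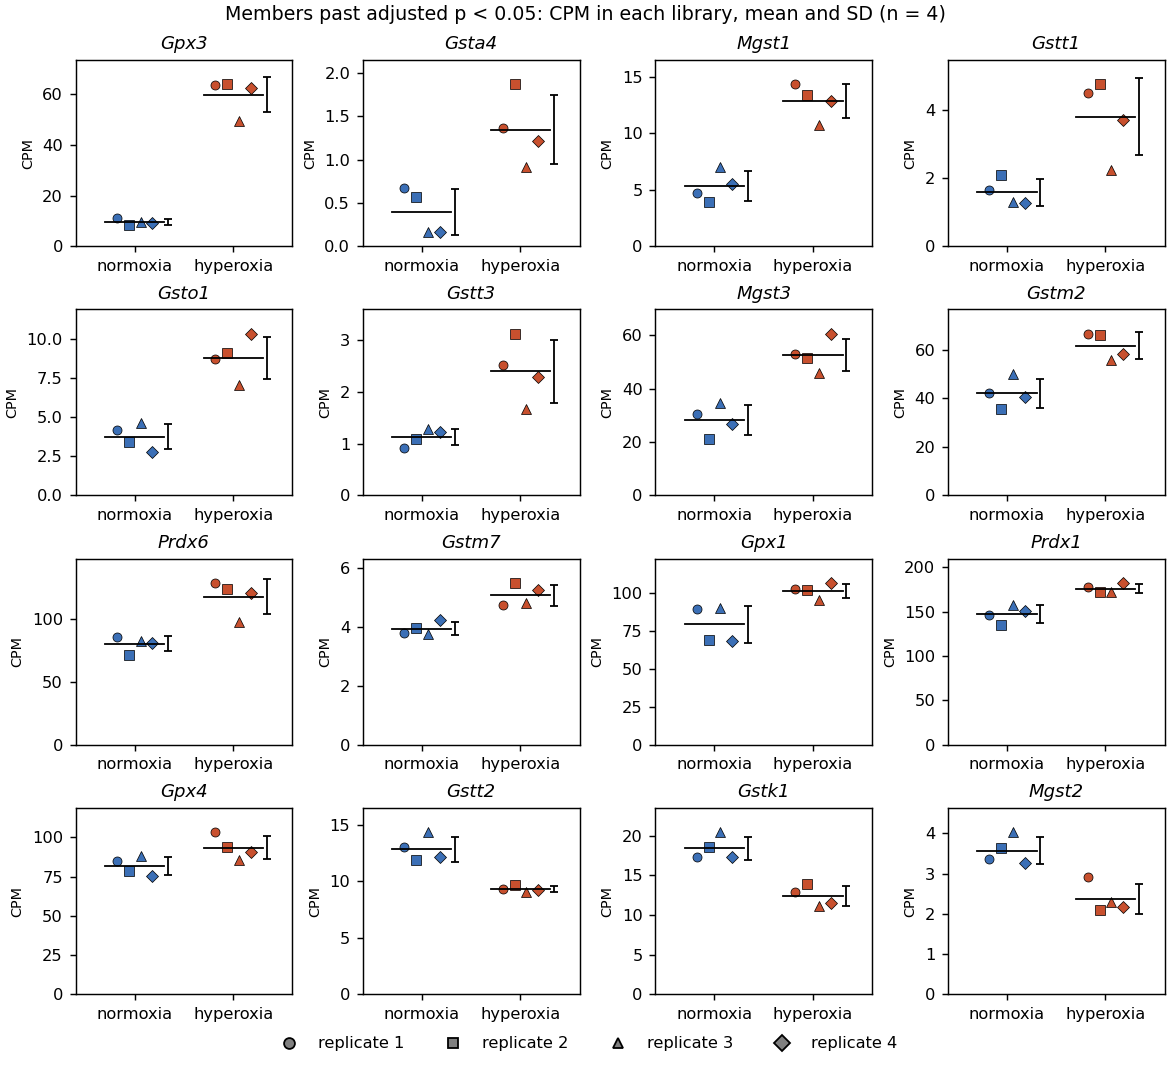
CPM (y axis, from 0) of the 16 enzymes past an adjusted p of 0.05 in each of the 4 normoxic (blue) and 4 hyperoxic (red) libraries, with symbols for the replicate number, a line at the mean and a bar of 1 SD. Groups are separate in all panels except Gpx4, but the panels were chosen by the test. Of all 15564 genes tested, 5513 had separate groups. Hyperoxia 3 (triangle) is the lowest red point in 14 of the 16 panels. These include Gstk1 and Gstt2, which fell, so there it lies farthest from normoxia.

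The 7 GSTs that were not tested were close to silent. Gsta1 and Gstm3 had no count in any library, and Gsta2 had 1 count in each group. Gstt4 had 7 counts in normoxia and 1 in hyperoxia. Gsta3 had 20 and 46 counts, Gstp2 16 and 26, and Gstp3 32 and 34, each summed over 4 libraries. For Gsta1, 80.6% of the transcript windows of 100 bases occur in other genes, so reads from it could have been given to its near copies or left out.

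Hyperoxia 3 was also set beside the other hyperoxic libraries, in which the levels of markers of other cells were higher. Its alveolar type 2 marker sum was still 2.78 times the normoxic mean. Taking the normoxic mean as 0% and the mean of hyperoxia 1, 2 and 4 as 100%, hyperoxia 3 stood at 25.3% for the alveolar type 2 markers and 23.3% for the alveolar type 1 markers. It stood at 33.9% for both the airway markers (mostly Tppp3) and the mesothelial markers, at 26.0% for the mural markers, at 9.57% for the fibroblast markers and at -8.0% for the leukocyte markers. The 13 enzymes that rose had 23.8% to 81.7% on this scale, with a median of 62.8%. Prdx1 (81.7%), Gpx3 (74.1%), Gstm7 (70.6%), Mgst3 (66.7%), Mgst1 (66.4%) and Gpx1 (66.0%) were highest, and Gstt1 (23.8%), Gpx4 (28.1%), Gstt3 (35.4%) and Prdx6 (38.9%) were lowest. Sod3, at -16.7%, was below the normoxic mean. These shares rest on 1 library and on means of few libraries, they were chosen after the data had been seen, and they carry no test. What sets the order of the enzymes was not tested.

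**Figure D4:**
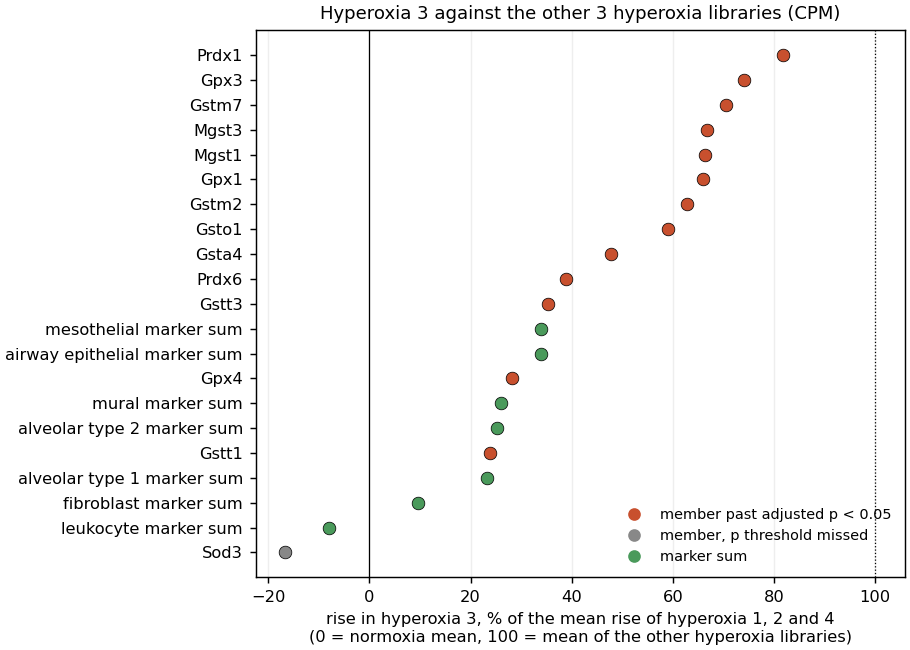
Level in hyperoxia 3 (x axis) as a percentage of the mean rise of hyperoxia 1, 2 and 4 above the normoxic mean, in CPM, for the 13 enzymes that rose (red), Sod3 (grey) and 7 sums of marker genes (green). Gpx3 stands at 74.1% and Gstt1 at 23.8%, and the marker sums lie between -8.0% and 33.9%.

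Without hyperoxia 3, 14 enzymes were higher and 3 lower, against 2801 and 2502 of the 15920 genes tested in that setting. With a score of 22 epithelial markers added to the edgeR model, only Gpx3 remained higher (log2 fold change 1.92, adjusted p = 0.00182) and 0 were lower. The folds did not move alike. Of the 16 called enzymes, 4 turned to the other sign (Gpx1, Gpx4, Gstt1 and Prdx6) and 9 kept their sign with a smaller fold, from 0.01 for Gstt3 and 0.07 for Gsta4 to 0.74 for Mgst1 apart from Gpx3. The 3 that were lower had larger folds than before but lost their calls, with log2 fold changes of -0.93 for Gstk1 (adjusted p = 0.250), -0.61 for Gstt2 (adjusted p = 0.516) and -0.78 for Mgst2 (adjusted p = 0.674). In that model 145 of all genes tested were higher and 25 were lower, against 2875 and 2660 without the score. The score, a mean of log2 values relative to normoxia, was -0.21 to 0.21 in normoxia and 1.30 to 2.50 in hyperoxia. Since it does not overlap between the groups, the effect of oxygen and the admixture of epithelial RNA cannot be told apart for any of the enzymes, Gpx3 included.

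The systems that feed these enzymes were also described by lists. Their counts are to be read beside the shares of all genes tested, of which 18.5% were higher and 17.1% lower. Glutathione supply and recycling had 23 tested genes, of which 8 were higher and 3 lower, with a median log2 fold change of 0.32. The cystine transporter subunit Slc7a11, which brings in the precursor of glutathione, had 1.56 ± 0.711 CPM in the normoxic and 3.31 ± 1.04 CPM in the hyperoxic group, a rise of 1.08 (adjusted p = 0.0229). Its groups overlapped, with 2.57 CPM in normoxia 3 against 2.38 CPM in hyperoxia 2. Chac1, which degrades glutathione, had 11.8 ± 2.53 and 6.05 ± 0.685 CPM and fell (log2 fold change -0.97, adjusted p = 0.000795). Slc3a2, the partner of Slc7a11 and the most abundant gene of the list by CPM, had 201 ± 14.4 and 212 ± 4.83 CPM (0.08, adjusted p = 0.298). Without hyperoxia 3 this list had 8 higher and 1 lower, against 2801 and 2502 of the 15920 genes tested in that setting.

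In the thioredoxin system 3 of 14 genes were higher and 3 lower, with a median of 0.07. These counts are close to the shares of all genes tested (18.5% higher and 17.1% lower). Srxn1 (sulfiredoxin), which repairs overoxidized peroxiredoxins, had 3.49, 3.02, 3.69 and 3.04 CPM in normoxia and 10.9, 11.6, 10.02 and 12.7 CPM in hyperoxia. It rose by 1.77 (adjusted p = 3.02e-06), and hyperoxia 3 was close to its group. Sesn2, a stress-induced sestrin, had 16.1, 22.4, 17.7 and 20.1 CPM and 54.4, 55.4, 52.8 and 50.5 CPM and rose by 1.48 (adjusted p = 1.27e-06). Txnip, an inhibitor of thioredoxin and the most abundant gene of the list, had 645, 574, 635 and 544 CPM and 351, 286, 311 and 334 CPM. It fell (log2 fold change -0.90, adjusted p = 9.19e-06), without overlap of the groups.

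NADPH supply had 3 of 9 tested genes higher and 0 lower (median 0.08). Me1, malic enzyme of the cytosol, had 5.37 ± 0.906 and 18.0 ± 3.62 CPM and rose by 1.74 on the log2 scale (adjusted p = 3.20e-05). H6pd rose by 0.43 (adjusted p = 0.0267), although its groups overlapped. Tkt, the most abundant gene of the list, rose by 0.25 (adjusted p = 0.0115). The selenium-containing glutathione peroxidases depend on selenoprotein synthesis as a process. In the list for it, 2 of 10 genes were higher and 1 was lower (median 0.09). With so few genes this does not stand out from the 18.5% and 17.1% of all genes tested. Whether a change of any 1 listed gene alters that synthesis was not tested. Lrp8, a receptor that takes up selenoprotein P, rose by 1.55 from a low level of 0.345 ± 0.184 CPM (adjusted p = 0.0112). It passed the filter on low counts through its hyperoxic libraries. Sephs1 fell by 0.36 (adjusted p = 0.000265), while Sephs2 did not pass (0.19, adjusted p = 0.231). Secisbp2l, the most abundant gene, had a value of -0.06 (adjusted p = 0.355).

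Copper supply to Sod1 and Sod3 had 2 of 7 genes higher and 1 lower (median 0.15). The copper pumps Atp7b (0.332 ± 0.114 and 3.86 ± 1.89 CPM, log2 fold change 3.52, adjusted p = 0.000236) and Atp7a (59.7 ± 9.22 and 94.1 ± 4.82 CPM, 0.66, adjusted p = 0.000393) both rose. Atp7b passed the filter on low counts only through its hyperoxic libraries. Hyperoxia 3 had 1.32 CPM of Atp7b against 4.08 to 5.88 CPM in the other hyperoxic libraries, and for Atp7a it had 91.9 CPM, within the range of its group. In the list of NRF2 and its regulators 5 of 12 genes were higher and 1 was lower (median 0.20). Nqo1, a quinone reductase and classical NRF2 target, had 1.35, 0.797, 1.79 and 0.994 CPM in normoxia and 2.91, 4.13, 4.18 and 3.16 CPM in hyperoxia, a rise of 1.54 (adjusted p = 0.00103). Maff, a small partner protein of NRF2, had 78.2 ± 14.9 and 153 ± 18.3 CPM (0.97, adjusted p = 0.000215), and Sqstm1, an adaptor protein that binds KEAP1, 294 ± 7.91 and 384 ± 19.8 CPM (0.39, adjusted p = 0.000148). In the same list Hmox1 did not pass, with overlapping groups (0.20, adjusted p = 0.192), and Cul3 fell (-0.23, adjusted p = 0.002). Over all 6 lists, 23 of 75 tested genes were higher and 9 lower, against 18.5% and 17.1% of all genes. Without hyperoxia 3 the counts were 22 and 7, against 2801 and 2502 of the 15920 genes tested in that setting. When the epithelial score was added they were 2 and 0, against 145 and 25 of all 15564 genes tested. The 2 were Sesn2 (log2 fold change 1.55, adjusted p = 0.0271) and Txnrd1 (0.88, adjusted p = 0.0188), the cytosolic thioredoxin reductase. Of the 32 genes called without the score, 12 kept their sign with a fold at least as large, 15 kept it with a smaller fold and 5 turned. Nqo1 had a log2 fold change of 1.97 with the score (adjusted p = 0.310), Txnip -1.12 (adjusted p = 0.0625) and Atp7a 0.75, whereas Me1 had 0.56 and Atp7b -0.19.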

How the data were processed

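Gene counts and FPKM were deposited by the authors for 8 bulk RNA-seq libraries. Per the labels and methods, paired-end reads from a NovaSeq instrument were used, and the submitters' processing notes name HISAT2 2.0.5, featureCounts 1.5.0-p3 and build mm10. Whether counting used strand, and how reads matching several genes were treated, is not given in the sources used here. The deposited FPKM equal count over gene length times 1 constant per library, and they served for comparing levels between genes and as an alternative. Total counts ran from 16098086 to 18300730 per library. Within-group pairs of libraries differed by more than sampling noise, so none was 1 library deposited again. Whether libraries share a pup or an RNA sample cannot be read from this.

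Counts were tested for all genes with edgeR 4.0.16 (quasi-likelihood test, TMM, default filterByExpr, group as the only term) in R 4.3.3, with Benjamini-Hochberg adjustment over 15564 genes, after a test on simulated data. The calls use an adjusted p of 0.05 and, as in the study, a log2 fold change of 1. CPM use TMM-normalized library sizes. Groups come from the sample labels. For marker sums an exact permutation test, two-sided and over 70 assignments of the libraries, was used. The members and lists were chosen with earlier results of these data known. Every member is accounted for, with the value in each library where the adjusted p was under 0.05 or the mean at least 50 CPM. From each pathway list the most abundant tested gene and the 2 with the largest called change are named, and from each marker list the most abundant. Txnrd1, Hmox1, Cul3, Sephs2 and Ptprc, and the lower and upper ends of the values for hyperoxia 3, were named after their values were seen. Alternatives used RLE size factors, library totals, other filters, DESeq2 1.42.0, limma 3.58.1 (voom, and log2 FPKM with a pseudocount of 0.1 or 1), glmTreat with a log2 threshold of 0.2, a replicate block, leaving out each library, summed near copies and an epithelial marker score. The score and the library left out were applied to the pathway lists after the data had been seen. Coordinates are those of the files and have the same gene limits in GENCODE M21 (GRCm38) for 39 of 43 members. Exon overlaps and shared sequence were read from that release, and promoters from RefSeq.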

Additional observations from a re-analysis of the deposited data

Results flagged for a closer look

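In 6 of 84 groups of 4 libraries (33 tested enzymes and 9 marker sums, in normoxia and in hyperoxia), 1 library lay apart from the other 3 by Dixon's 95% criterion (a gap of more than 0.829 of the range). Chance flags about 1 in 20 such groups, or 4.2 of 84. Gpx3 was 49.5 CPM in hyperoxia 3, against 62.6 to 64.0 CPM in the rest of the group. Sod3 was 4.69 CPM in hyperoxia 3, against 10.7 to 11.7 CPM. The alveolar type 1 marker sum was 188 CPM in hyperoxia 3, against 474 to 526 CPM. Gpx8 was 7.72 CPM in normoxia 3, against 5.41 to 5.76 CPM. Gstm5 was 5.38 CPM in hyperoxia 2, against 3.94 to 4.18 CPM. The mural marker sum was 47.9 CPM in normoxia 1, against 23.5 to 27.6 CPM. The cause of these values was not tested.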

How the results depend on the processing

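The number of higher and lower enzymes stayed within 1.5 times of 13 and 3 under every alternative except the epithelial marker score as a covariate, which left 1 higher, 0 lower and 1 higher with a log2 fold change of at least 1. The count with that fold, 6, was also 2 with limma on log2(FPKM + 1), a scale that shrinks the change of low genes. Leaving out 1 library gave 11 to 14 higher, 2 to 3 lower and 5 to 7 higher with the fold. Over all 15833 to 15952 genes tested, these fits gave 2393 to 2832 higher and 2133 to 2613 lower. The replicate block gave 11 higher, 3 lower and 6 with the fold, losing Gpx4 and Gstm7. The replicate numbers share no stated origin, and deviations of same-numbered libraries correlated at 0.119, 0.0361, -0.125 and -0.14, so they were not taken as pairs. Under the covariate the log2 fold changes of several enzymes turned to the other sign, none past the threshold: Prdx6 -0.11, Gpx1 -0.0090, Gpx4 -0.18, Cat -0.44, Sod2 -0.24, Prdx5 -0.73, Gpx7 0.018, Sod3 -1.79, Gpx8 -0.51, Gstt1 -0.59 and Gsto2 -0.20. Cat, near 0, also turned with library totals (-0.013) and ranged from -0.027 to 0.064 when single libraries were left out, and Gstp1 turned with no filter (0.0059) and ranged from -0.052 to 0.069. Apart from these, the calls of Gpx4, Gstm7, Mgst2, Sod3 and Gpx8 depended most on the setting, and the cause was not tested. Among the tested enzymes, Gsta4 and Gsto2 had the lowest CPM and the widest errors.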
